A study of Mus musculus with 4 samples.

Results

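The mouse stefin A family is a set of closely related genes on chromosome 16 that encode small proteins of the cell interior. Stefins bind the active site of papain-like cysteine proteases, chiefly the lysosomal cathepsins, and block it. Stefin A genes are known in bone marrow for their transcripts in granulocytes and their precursors. The 6 members described here are the gene rows named Cstdc4, Cstdc5, Stfa1, Stfa2, Stfa2l1 and Stfa3, out of 32285 gene rows. They were chosen by a measured value, their RNA level in granulocyte-like cells of 1 library, Mll3/4SI, against control. Levels in that library against control are therefore given as a description, with no test.

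Single bone marrow cells sorted as CD45.2+Kit+, taken from mice 10 weeks after transplantation, were read for RNA and for 13 surface antibodies. Kit is the stem cell factor receptor of blood progenitors, and CD45.2 is a leukocyte surface protein form often used to mark donor cells. A control was set beside Mll3SI and Mll4SI and beside Mll3/4SI, which carries both names; each of the 4 groups had 1 library, so no difference has a replicate check. Kmt2c encodes MLL3 and Kmt2d encodes MLL4, enzymes that methylate histone H3 at enhancers. The labels do not spell out SI and give no strain, allele construction, conditioning of the host, animal number or sex. Neither the meaning of the 2 hashtags nor any pooling of animals is stated. The library names call the 3 altered groups KI and the control wt.

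The libraries held 7887 to 11678 cell barcodes and 140546094 to 177753607 gene UMIs (unique molecular identifiers, 1 for each captured transcript). After filtering, 6743 control, 8023 Mll3SI, 10186 Mll4SI and 6755 Mll3/4SI cells were kept, with median gene UMIs per cell of 16973, 13603, 12800 and 19185. Each pair of libraries shared 16 to 29 cell barcodes. Kmt2c stood at 110.3 to 147 CPM and Kmt2d at 33.3 to 41.3 CPM (counts per 1000000 gene UMIs) in all kept cells; end counts of this kind do not show which allele a transcript came from. The X-linked Xist stood at 0.0315 and 0.194 CPM in control and Mll3SI and at 1148 and 1360 CPM in Mll4SI and Mll3/4SI. The sex-linked Eif2s3y stood at 63.3 and 62.0 CPM in control and Mll3SI and at 0 CPM in Mll4SI and Mll3/4SI. For Mll4SI and Mll3/4SI against control, sex of the cells and group cannot be told apart, while Mll3SI was like control in both genes. The part of sex in the family's level was not tested. Cells were clustered jointly without the stefin genes, and 14 of 27 clusters were called granulocyte-like from marker genes. These held 4307, 5252, 7896 and 3883 kept cells, in the order control, Mll3SI, Mll4SI and Mll3/4SI, which is the order used below.

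The members lie within 298.6 kb of chromosome 16 (GRCm38, 36156811 to 36455392; GENCODE M21). Stfa2l1 (ENSMUSG00000059657, 36156811 to 36161953), Cstdc4 (ENSMUSG00000079597, 36184212 to 36188111) and Stfa1 (ENSMUSG00000071562, 36276951 to 36285373) lie on the plus strand. Cstdc5 (ENSMUSG00000071561, 36359382 to 36367748), Stfa2 (ENSMUSG00000022902, 36403992 to 36408457) and Stfa3 (ENSMUSG00000054905, 36450537 to 36455392) lie on the minus strand. All 6 are annotated as protein coding. A read can be assigned to 1 copy only where the copies differ, so the last 60 coding bases of each member, stop codon included, are shown from the GENCODE transcripts, with capitals where a base differs from Cstdc5:
Cstdc5: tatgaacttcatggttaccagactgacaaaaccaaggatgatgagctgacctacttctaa
Stfa1: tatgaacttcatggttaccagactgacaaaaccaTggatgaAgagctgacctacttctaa
Cstdc4: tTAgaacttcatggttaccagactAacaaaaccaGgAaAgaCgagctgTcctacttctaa
Stfa2: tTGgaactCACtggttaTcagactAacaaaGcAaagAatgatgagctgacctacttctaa
Stfa2l1: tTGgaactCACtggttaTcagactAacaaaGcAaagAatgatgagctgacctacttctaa
Stfa3: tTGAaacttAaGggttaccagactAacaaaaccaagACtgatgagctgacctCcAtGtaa

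Stfa1 differed from Cstdc5 at 2 of these 60 bases, and Cstdc4, Stfa2, Stfa2l1 and Stfa3 at 8, 10, 10 and 11. Stfa2 and Stfa2l1 were identical over them. Over the whole coding sequence the 15 pairs were 80.6% to 98.0% identical, with Stfa1 and Cstdc5 closest and Stfa2 and Stfa2l1 next at 96.5%. The assay counts the 3′ end of a transcript. Of the 211 windows of 90 bases in the last 300 bases of each transcript, Cstdc5 shared 88 with Stfa1 or its neighbour Cstdc6, and Stfa1 shared 39 with Cstdc5. Cstdc4 shared 45 with Csta2, Stfa2 shared 8 with Stfa2l1, and Stfa3 shared none. How reads from shared windows were assigned is not given in the sources used here, so a level of 1 copy may hold reads of another, and the sum over the 6 members is the firmer value.

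Granulocyte-like cells of the Mll3/4SI library carried far more stefin A RNA than those of the other libraries, and every member took part. Summed over the 6 members, the level was 21.2 CPM in control. Mll3SI stood at 8.07 CPM and Mll4SI at 2.73 CPM, both lower, and Mll3/4SI at 880.2 CPM, far higher. These levels rest on 1525, 591, 267 and 64561 UMIs. Against control the Mll3/4SI level was 41.6-fold [39.5 to 43.8]; brackets give 95% intervals that cover counting error only. The log2 ratios, with 1 CPM added to each level, were -1.29 in Mll3SI and -2.57 in Mll4SI, against 5.31 in Mll3/4SI, which differ in sign. Each comparison uses the same control library.

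Stfa1, the member counted most in control, stood at 16.2, 5.68, 1.54 and 135 CPM. Its Mll3/4SI level was 8.35-fold that of control [7.85 to 8.87], the smallest fold of the 6. Mll3SI was 2.85-fold and Mll4SI 10.5-fold lower than control. Cstdc5, the copy nearest to Stfa1 in sequence, stood at 3.07, 0.697, 0.818 and 438 CPM, a 143-fold difference between Mll3/4SI and control [125 to 164]. A single control cell gave 89 of the 221 control UMIs of Cstdc5, which the interval does not cover. Stfa1 was thus ahead of Cstdc5 in control, and Cstdc5 was ahead of Stfa1 in Mll3/4SI.

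Cstdc4 was close to the detection floor outside Mll3/4SI, at 0.278, 0.0820, 0.0102 and 147 CPM, and its fold was the largest that could be computed, 531 [344 to 870]. Of its 20 control UMIs 15 came from 1 cell, and 1 cell gave 16 of the 54 control UMIs of Stfa2l1. The intervals do not cover such clumping, so the order of the members by fold is uncertain. Stfa2l1 stood at 0.749, 0.697, 0.133 and 94.5 CPM. Stfa3 stood at 0.860, 0.915, 0.225 and 37.4 CPM. For these 2 genes Mll3/4SI was 126-fold [96.6 to 168] and 43.5-fold [33.8 to 56.9] above control, and control and Mll3SI were within counting error of each other. Stfa2 had no UMI in control, Mll3SI or Mll4SI and 1997 UMIs, 27.2 CPM, in Mll3/4SI, at least 654-fold the level of 3 UMIs in the control library (0.0416 CPM).

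**Figure D1:**
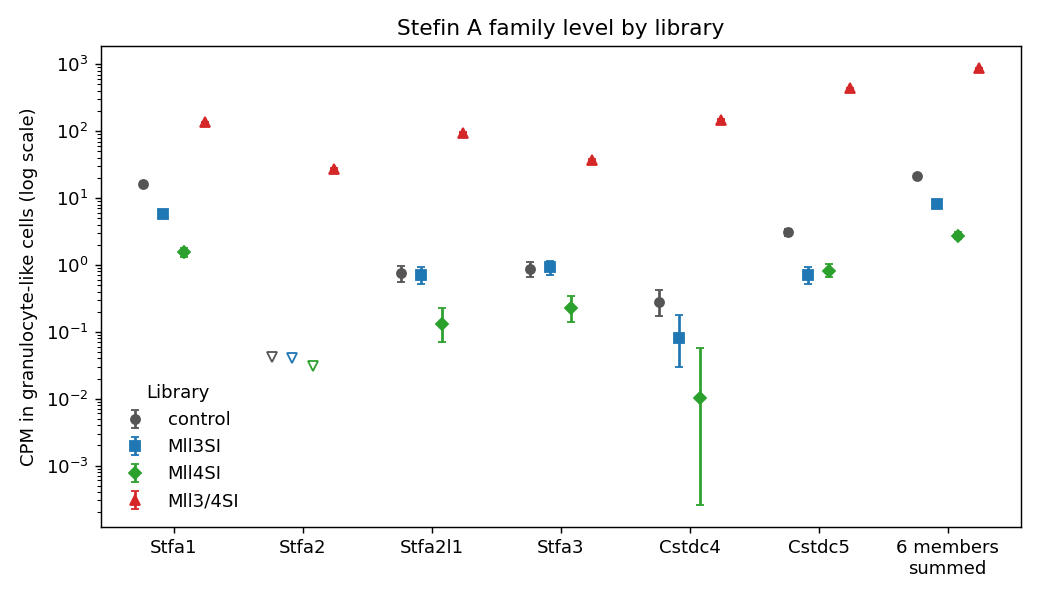
Level of each stefin A gene and of the 6 summed in granulocyte-like cells of each library, in CPM on a log axis, with 95% Poisson intervals (counting error only; open triangles mark the level of 3 UMIs where none was counted). For every member the Mll3/4SI point lies above the other 3, and Stfa1 is the highest member in control while Cstdc5 is the highest in Mll3/4SI.

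A mean of at least 1 CPM over the libraries was asked of a gene before its ratio was counted, and 11330 genes passed. All 6 members passed, Stfa2, Stfa2l1, Stfa3 and Cstdc4 only through Mll3/4SI. In that library 6 of 6 members were higher than control by a log2 ratio of at least 1, against 0.847% of all genes tested, a count the choice of members fixes; 0 of 6 were lower, against 1.13%. In Mll3SI 2 of 6 (Stfa1 and Cstdc5) were lower by that much, against 0.309% of genes, and in Mll4SI the same 2, against 2.18%. No member was higher by that much in Mll3SI, where the share of all genes was 0.229%, or in Mll4SI, where it was 1.12%. The median log2 ratio of the members was -0.14, -0.61 and 5.29, beside 0.02, -0.12 and -0.10 over all genes tested. Stfa2, Stfa2l1, Stfa3 and Cstdc4 stood under 1 CPM in control, so with 1 CPM added none of them could be called lower. The counts of lower members and the medians in Mll3SI and Mll4SI are bounded by this. With nothing added, Mll4SI log2 intervals were -3.49 to -1.60 for Stfa2l1, -2.71 to -1.21 for Stfa3 and -10.1 to -2.12 for Cstdc4 (1 UMI). In Mll3SI they were -0.69 to 0.47, -0.43 to 0.61 and -3.36 to -0.39 (6 UMIs). In control, however, 15 of the 20 Cstdc4 UMIs came from 1 cell, and these intervals do not cover such clumping. The lower Cstdc4 values in Mll3SI and Mll4SI thus rest largely on that cell.

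The make-up of the family differed between libraries as well. Stfa1 gave 76.6% of the family's UMIs in control [74.4 to 78.7], 70.4% in Mll3SI and 56.6% in Mll4SI, against 15.4% in Mll3/4SI [15.1 to 15.6]. Cstdc5 gave 14.5%, 8.63%, 29.96% and 49.8%. Cstdc4 gave 1.31% in control and 16.7% in Mll3/4SI, and Stfa2l1 gave 3.54% and 10.7%. Stfa3 took 4.07% in control, 11.3% in Mll3SI and 8.24% in Mll4SI, against 4.25% in Mll3/4SI.

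The RNA was concentrated in few cells. In each cell thinned at random to 3000 UMIs, to level depth, a family UMI was present in 2.79% of control [2.32 to 3.33], 1.38% of Mll3SI and 0.475% of Mll4SI, against 11.6% of Mll3/4SI granulocyte-like cells [10.6 to 12.7]. Thinning left out 40, 37, 100 and 44 shallower cells. Without thinning the shares were 6.71%, 3.98%, 1.27% and 23.6%. More Mll3/4SI cells had the RNA, and the gap between the shares was smaller than the 41.6-fold gap between the levels.

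Free RNA in the droplets sets a background for such shares. Among all cells outside the class, the thinned shares were 0 of 2345 control cells, which allows up to 0.128%, 0 of 2690 in Mll3SI and 0.139% in Mll4SI, against 1.65% in Mll3/4SI, with median depths of 22224, 17668, 20834 and 23033 UMIs, beside 15751, 12572, 11514 and 17880 in the class. Without thinning, 9.12% of the Mll3/4SI cells outside the class had a family UMI, and classes expected to lack the transcripts had like shares: 9.18% of HSC/MPP-like and 6.4% of erythroid-like cells, or 0.641% and 0.847% after thinning. The cells outside the class also include unnamed cluster 7 (1293 Mll3/4SI cells), whose early granule genes summed to 32420 CPM, beside 38258 CPM in granulocyte-like cluster 3, and which held 4 cells at 10 or more family UMIs. So 1.65% and 9.12% may hold more than background. HSC/MPP-like cells (stem cells and multipotent progenitors) of Mll3/4SI stood at 3.71 CPM and erythroid-like cells at 2.68 CPM, against 0.0954 and 0.118 CPM in control. Monocyte-like cells of Mll3/4SI stood at 13.9 CPM, with 1 cell of 312 at 10 or more UMIs. A threshold of 10 family UMIs in a cell, chosen after the values were seen, is used below to keep above that background.

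At least 10 family UMIs were found in 41 of 4307 control cells (0.952%), 9 of 5252 Mll3SI cells (0.171%), 6 of 7896 Mll4SI cells (0.0760%) and 287 of 3883 Mll3/4SI cells (7.39% [6.59 to 8.26]). In Mll3/4SI these cells held 98.0% of the family's UMIs in the class, and 29 cells held as many as all the rest. The 39 cells with the most, 1% of the class, held 59.7%. The family reached at least 100 UMIs in 108 cells and at least 300 in 66 of them. The highest cell had 2059 family UMIs, and the highest share of a cell's UMIs was 11.5%. The highest control cell had 96. None of the 41, 9 and 6 cells of the other libraries had a barcode seen in another library, and 1 of the 287 did.

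**Figure D2:**
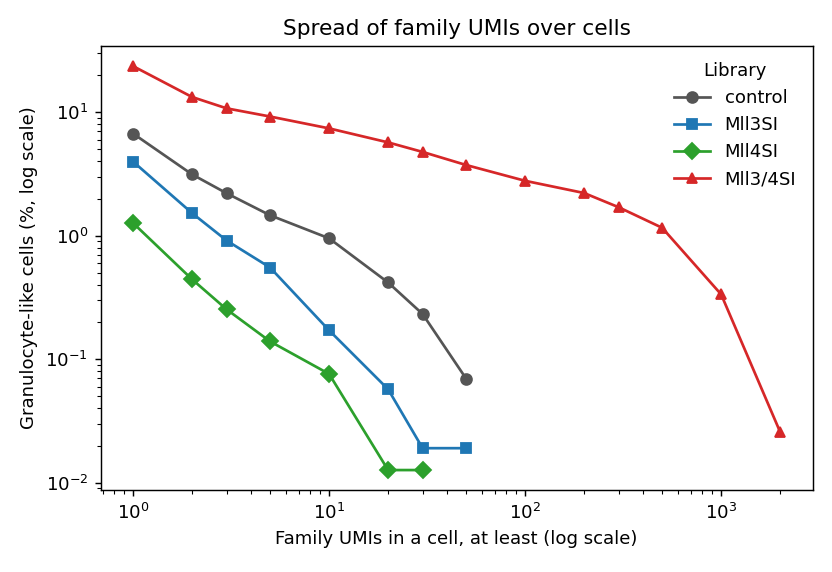
Share of granulocyte-like cells (y axis, %, log scale) with at least the number of family UMIs on the x axis (log scale), not thinned, for each library. The control curve ends below 100 UMIs, while in Mll3/4SI 108 cells reach 100 UMIs or more and the highest cell has 2059.

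Leaving out the cells with 10 or more UMIs limits every library to 9 per cell, so the ratios must shrink. In the other cells the family stood at 6.82 CPM in control, 5.27 in Mll3SI and 1.65 in Mll4SI, against 18.7 in Mll3/4SI, a log2 ratio of 1.33 for Mll3/4SI in place of 5.31 and of -0.32 for Mll3SI in place of -1.29. The median depth of the cells with 10 or more, family UMIs included, was 18298 UMIs in Mll3/4SI, beside 17750 for granulocyte-like cells with none. Cells above both hashtag thresholds, a sign of doublets, made up 7.32% of the 287 cells and 3.24% of the class; without such cells the log2 ratio was 5.36.

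Control cells mostly held RNA of 1 member, and Mll3/4SI cells that of several. Of the 41 control cells with 10 or more family UMIs, 35 had UMIs of 1 member alone and 36 had Stfa1 as their leading member. Cstdc5 led in 3 of them, and Stfa2l1 and Cstdc4 in 1 each. Only 1 of the 41 had 2 members at 3 or more UMIs. The 9 Mll3SI cells and 6 Mll4SI cells had none with 2 members at that level. Since most control cells with many Stfa1 UMIs had none of Cstdc5, the 2 closest copies were counted apart in these cells in spite of their shared windows.

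In Mll3/4SI 217 of the 287 cells had at least 2 members at 3 or more UMIs (75.6%), and 39 cells had a UMI of all 6. Cstdc5 led in 190 cells, Stfa1 in 68, Stfa2l1 in 18 and Cstdc4 in 11. Stfa2 and Stfa3 led in none. Cstdc5 reached 3 UMIs in 260 of the cells, Stfa2l1 in 186, Stfa1 in 120, Cstdc4 in 100, Stfa2 in 63 and Stfa3 in 62.

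The make-up also differed with the number of family UMIs in a cell. Cells with 10 to 29 family UMIs had a median of 1 member in control (31 cells) and 2 in Mll3/4SI (102 cells). In Mll3/4SI, cells with 100 to below 300 had 3.5, and the 66 cells with 300 or more had 6. Cstdc4 made up 4.28% of family UMIs in the lowest of these ranges and 18.9% in the highest. Stfa3 went from 0.167% to 4.99% and Stfa2 from 0.111% to 3.65%. Cstdc5 stayed near its share, at 56.7% and 48.4%, and Stfa2l1 made up less of the total in the highest range, at 17.4% and 9.30%. Below the threshold, in Mll3/4SI cells with 1 or 2 family UMIs, Stfa3 gave 15.6%, Cstdc4 7.71% and Stfa2 2.35%. The shares of these members thus did not rise throughout. More members are found by counting alone where a cell has more UMIs, whereas shares of UMIs do not grow with the count in this way.

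**Figure D3:**
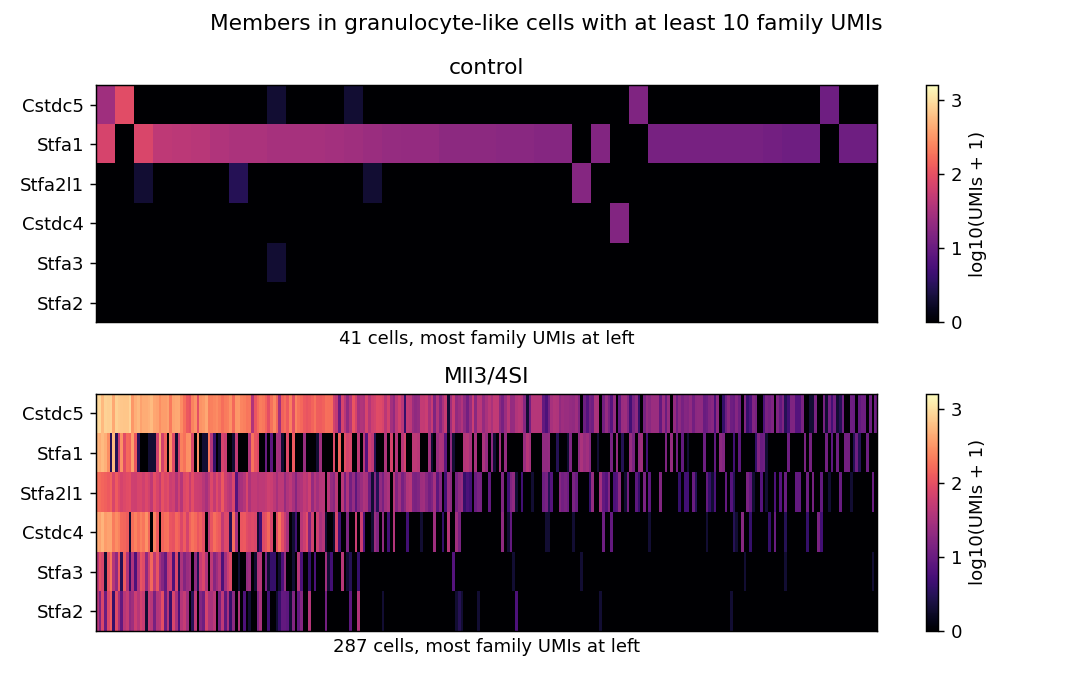
UMIs of each member, as log10(UMIs + 1), in every control (41) and Mll3/4SI (287) granulocyte-like cell with at least 10 family UMIs, ordered from most (left) to fewest. Control cells show 1 bright row, mostly Stfa1, while Mll3/4SI cells at the left are bright in all 6 rows and those at the right in Cstdc5, Stfa2l1 or Stfa1.

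Thinning to 3000 UMIs levels a cell's total but not its family UMIs, and more members are found where there are more of these: 33 control and 232 Mll3/4SI cells still had at least 3. After thinning, 192 of 447 positive Mll3/4SI cells had 2 or more members (43.0%), against 2 of 119 in control, 0 of 72 in Mll3SI and 0 of 37 in Mll4SI. Each of the 56 Mll3/4SI cells with Stfa2 also had Cstdc5, and 55 of them had Stfa2l1. Cstdc4 and Cstdc5 were found together in 89 cells, where the product of their single shares gives 8.87. Stfa1 and Cstdc5 were found together in 95 cells, where the product gives 12.0, and 72.5% of Stfa1 cells had Cstdc5. Across 75 pairs of a cluster and a library with at least 50 cells, Stfa1 correlated with the other members at r = 0.55 to 0.68 and the other 5 with each other at 0.87 to 0.95. These points share libraries and depth, and 23 of them are clusters of Mll3/4SI. The members were chosen for their level in that library, so high values of r between them are partly fixed by the choice. The values are a description.

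Most of these cells fell in 2 clusters made up almost wholly of Mll3/4SI cells. Cluster 13 held 1087 Mll3/4SI cells beside 1 from control, 1 from Mll3SI and 9 from Mll4SI, and cluster 23 held 289 beside 2, 12 and 13. A cluster from mostly 1 library may be that library and not a cell type. The stefin genes did not enter the clustering. They lead the genes of both clusters, a place that the choice of members by their Mll3/4SI level favours. The family stood at 1988 CPM in cluster 13 and 4265 CPM in cluster 23 of Mll3/4SI. The 2 clusters held 192 and 64 of the library's 287 cells with 10 or more family UMIs, and 65.3% and 27.5% of its family UMIs. Cluster 16, with 819 Mll3/4SI cells, stood at only 10.0 CPM. Without clusters 13 and 23 the log2 ratio of Mll3/4SI to control was 1.98 in place of 5.31.

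In the clusters with at least 50 cells of both libraries, Mll3/4SI was not above control throughout. It was higher in 6 of 9 and lower in 3, and the mean log2 ratio over the 9 was 1.38. Among the 6, cluster 3 stood at 3.23 CPM, near the background of 3.71 CPM in HSC/MPP-like cells of Mll3/4SI. Cluster 5 differed little, at 14.0 CPM beside 11.9 CPM in control. In cluster 2, whose leading genes include Ltf and Cybb, the family stood at 21.4 CPM in control and 1076 CPM in Mll3/4SI. In cluster 12, led by the early granule genes Elane and Prtn3, it stood at 0 CPM in control and 50.5 CPM in Mll3/4SI. Few cells carried these values: 3 cells, with 787, 595 and 580 family UMIs, gave most of the 2213 in cluster 2, and 1 cell gave 161 of the 248 in cluster 12. Clusters 10, 14 and 20 were lower, at 59.9, 27.4 and 51.0 CPM in control and 34.4, 19.0 and 8.62 CPM in Mll3/4SI. Few control cells carried some of these too: 1 cell gave 96 of 192 family UMIs in cluster 14, and cells with 43 and 40 gave most of 119 in cluster 20. Without thinning, 15.7%, 9.71% and 15.7% of control cells had a family UMI in the 3 clusters, against 22.7%, 18.0% and 18.8% in Mll3/4SI. These shares hold the background of free RNA described above. Of the clusters shared with control, Mll3SI was lower in 7 of 8, and Mll4SI was lower in 6 of 7 and at 0 CPM with control in the other. Together the 9 clusters held 41.5% of Mll3/4SI granulocyte-like cells.

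Surface protein and granule RNA set clusters 13 and 23 as a whole apart from cluster 16; most of their cells had no family UMI. Gr1 is an antibody mark of maturing granulocytes, and CD11b an integrin of myeloid cells. In clusters 13 and 23 the median cell had 42 and 34 Gr1 UMIs, against 630 in cluster 16, while median CD11b was 611, 400 and 576. Ly6g, a gene whose protein the Gr1 antibody binds, stood at 7.29 and 4.28 CPM in clusters 13 and 23 and 137 CPM in cluster 16. Ltf, which encodes the granule protein lactoferrin, stood at 1994, 2264 and 6238 CPM, whereas Camp, another granule gene, stood at 68106, 60853 and 57279 CPM. Control cluster 0, where 20 of the 41 control cells with 10 or more family UMIs lay, had a median of 636 Gr1 UMIs and 267 CPM of Ly6g.

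Over all granulocyte-like cells of Mll3/4SI, the share with 10 or more family UMIs went down with Gr1. It was 13.8% below 30 Gr1 UMIs [11.1 to 16.8], 13.2% from 30 to below 100, 5.92% from 100 to below 300, 1.30% from 300 to below 1000 and 1.84% at 1000 or more [0.885 to 3.35]. Control shares were 0 of 171 cells, 0.320%, 1.33%, 1.27% and 0.891% in the same ranges. Above 300 Gr1 UMIs the 2 libraries were therefore close in this share. The family level there still differed, at 27.7 and 20.7 CPM in control and 103 and 54.2 CPM in Mll3/4SI. The ranges were chosen after the values were seen. In Mll3/4SI the median Gr1 was 44 in cells with 10 or more family UMIs and 203 in those with none, but inside cluster 13 it was 48.5 and 40, and in cluster 23 it was 33 and 38. CD16_32, an Fc receptor mark, had medians of 721 and 793, and CD117 (Kit) of 67 and 70. The planned measure was the share of antibody UMIs pooled over cells, but few cells can set such a share, so medians lead here. For Gr1 the pooled share was 8.59% in Mll3/4SI cells with 10 or more family UMIs and 23.1% in those with none. Inside cluster 13 it was 4.596% and 21.1%, the opposite order to the medians, and in cluster 23 it was 2.61% and 3.301%. The reason for the opposite order was not tested.

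**Figure D4:**
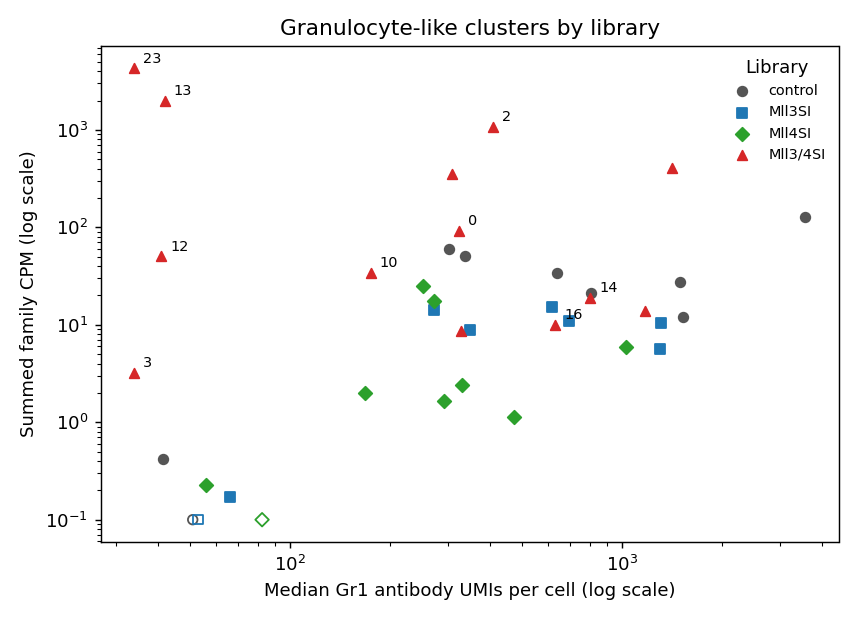
Summed family level (CPM, log axis) against the median Gr1 antibody UMIs per cell (log axis) for each granulocyte-like cluster of each library with at least 50 cells; open symbols at the bottom mark clusters with no family UMI, and numbers name Mll3/4SI clusters of at least 150 cells. Mll3/4SI clusters 13 and 23 stand at the upper left, at 1988 and 4265 CPM with Gr1 medians of 42 and 34, while the early clusters 3 and 12 have a like Gr1 at 3.23 and 50.5 CPM.

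Levels were also set side by side in ranges of a stage score. Cells were put in 4 ranges of the share of UMIs from late granule genes, bounded at the control quartiles. The Mll3/4SI log2 ratios to control in them lay between 4.19 and 5.88, with a mean of 5.01. The 5.88 came from the lowest range, where the score itself differed (0.244% of UMIs in control, 2.73% in Mll3/4SI). With 8 ranges the lowest had like scores (0.158% and 0.148%), and its ratio was 1.89, on 2 and 18 family UMIs. Mll3/4SI stood there at 3.26 CPM, with a family UMI in 9.04% of cells and 10 or more in 0%. This is near the background seen in HSC/MPP-like cells of that library, 3.71 CPM and 9.18%. In the 4 ranges, the ratios of Mll3SI lay between -1.63 and -0.25 (mean -1.08) and those of Mll4SI between -3.08 and -0.80 (mean -2.37). The ranges hold different clusters in the different libraries, so like scores need not be like cells.

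Cells above the threshold of only 1 hashtag gave the same order of libraries. In Hashtag1 cells the family stood at 21.6, 10.2, 3.69 and 1016 CPM, and in Hashtag2 cells at 21.0, 6.73, 2.0 and 821 CPM. In Mll3/4SI Stfa1 stood at 199 and 79.0 CPM in the cells of the first and second hashtag, while Cstdc5 was at 475 and 442 CPM.

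Other stefin genes of the locus were found with the members in the same cells. Inside Mll3/4SI clusters 13 and 23, the 256 cells with 10 or more family UMIs were set beside the 834 cells with none. This comparison was chosen after the values were seen and is a description. Cstdc6, a neighbouring stefin-like gene, stood at 163 CPM in the former (817 UMIs, in 133 of the 256 cells) and 0.0664 CPM in the latter (1 UMI). Csta3 stood at 28.7 and 0.0664 CPM and Csta2 at 21.3 and 0.797 CPM. These 3 had the highest log2 ratios of all genes there, with 10 CPM added: 4.10, 1.94 and 1.54. Cstdc6 shares 49 of its 211 end windows with Cstdc5 and Csta2 shares 45 with Cstdc4, whereas Csta3 shared none of its 205. Over Mll3/4SI cells with 1 to 9, 10 to 99 and 100 or more Cstdc5 UMIs, Cstdc6 had 1.98, 3.35 and 2.69 UMIs per 100 of Cstdc5. Csta3 had 0.220, 0.113 and 0.541 per 100, the first 2 on 2 and 5 UMIs, and Csta2 had 1.98, 1.61 and 0.127. The 3 genes thus did not follow Cstdc5 in 1 way.

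Genes around the cluster that are no stefins were mostly at the same level in both sets of cells. Kpna1, a nuclear import receptor, stood at 35.7 CPM with and 37.1 CPM without the family, and Golgb1, a Golgi matrix protein gene, at 32.7 and 32.1 CPM. Parp14 and Parp9 stood at 15.6 and 14.6 CPM and at 17.9 and 16.2 CPM. Fam162a was higher, at 34.3 and 17.5 CPM. Against control over the whole class, the log2 ratio of Fam162a in Mll3/4SI was -0.46. Of 28 genes within 500 kb of the members 16 passed the level asked, of which 1 (Cstdc6, 3.70) was higher than control in Mll3/4SI by a log2 ratio of at least 1, beside 0.847% of all genes, and none lower. Cstdc6 passed only through Mll3/4SI, at 12.2 CPM against 0.0139 CPM in control and 0 in the others, so that count is fixed by the level asked. The median of the 16 was -0.06. Csta3 (1.63) and Csta2 (1.44) were under the level asked, and Slc15a2 was lower in Mll4SI (-1.47). The antisense gene Gm15845, which overlaps Cstdc5, had 11 UMIs (0.150 CPM) in Mll3/4SI, 10 of them in the 287 cells with 10 or more family UMIs and 0 in the 2967 with none; without stated strand handling these cannot be told apart from Cstdc5 reads.

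**Figure D5:**
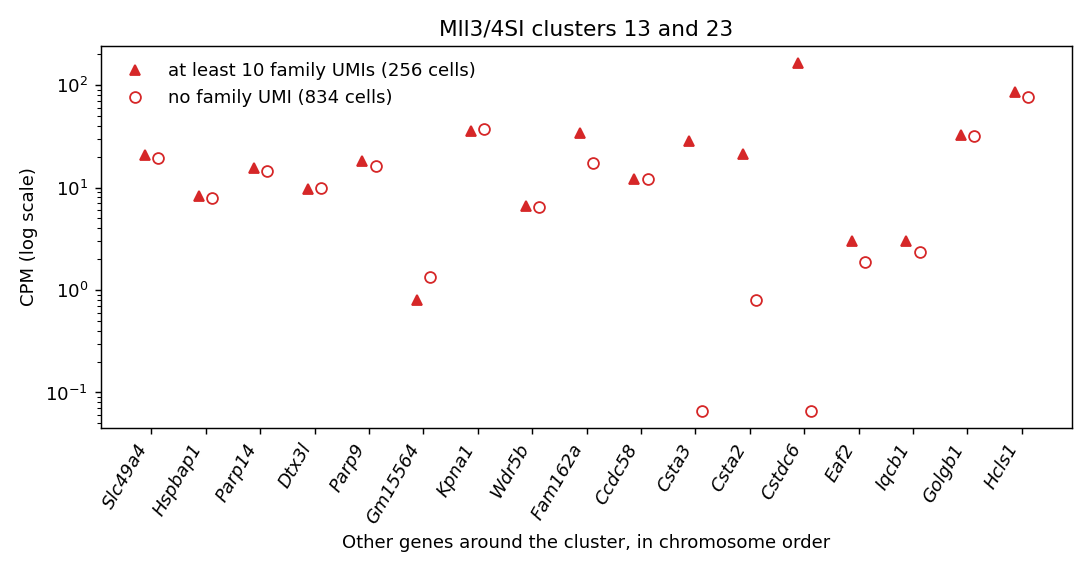
Level (CPM, log axis) of other genes within 500 kb of the members, in chromosome order, in Mll3/4SI cells of clusters 13 and 23 with at least 10 family UMIs (filled, 256 cells) and with none (open, 834 cells), for genes with at least 10 UMIs in either set. The filled and open points separate widely for Csta3, Csta2 and Cstdc6 and lie close together for most others.

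The starts of the 6 genes carry a shared string, shown because the members were found together in cells. In RefSeq promoter sequence (GRCm38.p6) the longest string common to the 250 bases before all 6 starts was 12 bases long, in capitals here within 30 bases on the strand of the gene:
Stfa2l1 (chr16:36156766-36156795, plus strand): tttacagaaACCTTTAAAACCctgagtctc
Cstdc4 (chr16:36184171-36184200, plus strand): tttacagatACCTTTAAAACCctgactctt
Stfa1 (chr16:36277106-36277135, plus strand): ctttcggatACCTTTAAAACCctgagtctc
Cstdc5 (chr16:36367562-36367591, minus strand): tttacagatACCTTTAAAACCccgagtctc
Stfa2 (chr16:36408375-36408404, minus strand): cttacagaaACCTTTAAAACCctgagtctc
Stfa3 (chr16:36455406-36455435, minus strand): ttacagataACCTTTAAAACCccgagtctc

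The string began 12 to 36 bases before the RefSeq start of these genes. RefSeq starts differ from the GENCODE starts given above: by the latter, the windows of Stfa1, Cstdc5 and Stfa2 lie inside the gene. The string was found in 11 of 32851 promoters searched on both strands (0.0335%). Csta3 carries it too, 80 bases before its start, and so does 1 of the 2 annotated starts of Cstdc3. Csta2 and Csta1 do not carry it in this window. The 15 pairs of promoters were 75.9% to 96.1% identical, so shared strings are not independent findings. The RUNX letters TGTGGT were in 6 of 6 members and 14.0% of all promoters. The C/EBP letters TTGCNNAA were in 2 (9.56% of all), the PU.1 letters GAGGAAG in 3 (10.6%), the GATA letters AGATAA in 3 (9.99%), the interferon-stimulated response element in 0 (2.98%) and TATAAA in 0 (12.4%). All were searched on both strands, and the only overlap was of the GATA letters with the shared string in Stfa3. A match or its absence in this window describes the letters and no factor.

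Among the proteases that stefins inhibit, no tested gene differed from control by a log2 ratio of 1, a size few genes reached at all. Of 11 cysteine cathepsin genes 6 passed the level asked, and 0 of 6 differed by a log2 ratio of at least 1 in any library. Over all genes tested, 0.229% were higher and 0.309% lower by that much in Mll3SI, and 1.12% and 2.18% in Mll4SI. In Mll3/4SI these shares were 0.847% and 1.13%, so 0 of 6 is near what they would give. The list median was 0.17 (Mll3SI), -0.08 (Mll4SI) or -0.22 (Mll3/4SI). Ctsb stood at 92.6, 101.9, 91.9 and 92.7 CPM. Ctsc, which activates granule serine proteases, stood at 8.87, 12.3, 4.93 and 4.64 CPM, a log2 ratio of -0.73 in Mll4SI and -0.81 in Mll3/4SI. Ctsz was at -0.75 in Mll4SI and -0.39 in Mll3/4SI. Among other cystatins Cstb, the ubiquitous stefin B, stood at 43.1, 53.4, 56.8 and 51.8 CPM. Cst7 (cystatin F) was lower in Mll4SI (-1.16) and at -0.70 in Mll3/4SI. Of the 7 other protease inhibitors tested, Serpinb2 was higher in Mll3/4SI (1.07) and in Mll4SI (1.59), and the granulocyte elastase inhibitor Slpi was lower in Mll3/4SI (-1.09).

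Granule genes differed in both directions. In Mll3/4SI 2 of 8 early granule genes were lower, Ctsg (-1.02) and Nkg7 (-1.31), with a list median of -0.64. Of 14 late granule genes 1 was higher, Itgb2l (1.49), and 3 were lower, Ly6g (-1.71), Chil3 (-1.46) and Mmp9 (-1.07), with a median of -0.05. Over all genes tested in Mll3/4SI, 0.847% were higher and 1.13% lower by that much. In Mll4SI Mpo (-1.01), Ctsg (-1.15) and Nkg7 (-1.06) were lower, and Mmp8 (2.27), Retnlg (2.07) and Mmp9 (1.19) higher, against 2.18% of all genes lower and 1.12% higher. In Mll3SI Mmp8 was lower (-1.12), against 0.309% of all genes.

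Interferon-induced genes were higher in the same library. Of 13 tested, 11 were higher in Mll3/4SI by a log2 ratio of at least 1, against 0.847% of all genes tested, with a list median of 1.77, and none in Mll3SI or Mll4SI. Ifit1, Rtp4, Usp18 and Rsad2 passed the level asked only through Mll3/4SI, where they had to be high, so the count and median are a description. Rtp4 (2.79), Isg15 (2.58), Ifi27l2a (2.52), Oasl2 (2.17), Ifit1 (2.14) and Zbp1 (2.11) led, followed by Usp18 (1.77), Rsad2 (1.73), Ifitm3 (1.46), Irf7 (1.40) and Oas2 (1.23). Bst2 (-1.21) and Oas2 (-1.01) were lower in Mll4SI. Within clusters 13 and 23 of Mll3/4SI, however, the list summed to 1304 CPM in cells with 10 or more family UMIs and 1481 CPM in cells with none. The late granule list summed to 376277 and 371657 CPM in those cells and the early one to 2772 and 2802 CPM. The part of the interferon genes in the level of the family was not tested.

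The genes named here were among the 10 closest to the family across the 75 pairs of a cluster and a library, among 8310 genes with a mean of at least 10 CPM. Gm50022 led at r = 0.78, at 7.99, 8.96, 6.26 and 81.7 CPM in granulocyte-like cells of the 4 libraries. Tsc22d4 (0.73), Tnnt1 (0.73), Slfn2 (0.71), 1110008P14Rik (0.70), Ilk (0.70), Cmpk2 (0.70), Hcst (0.70) and Cotl1 (0.70) followed. Only Gm50022 among them differed widely between Mll3/4SI and control; Tsc22d4 stood at 145 CPM in control and 184 CPM in Mll3/4SI, and Cotl1 at 335 and 340.2 CPM.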

How the data were processed

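Deposited values were counts of UMIs per feature and cell barcode, made by the authors on mm10 per the submitters' processing notes; per the file headers the software was Cell Ranger 7.1.0, for 32285 genes, 13 surface antibodies and 2 hashtags. The handling of reads that fit several genes is not given in the sources used here.

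Cells with at least 500 genes, 1000 gene UMIs and at most 10% mitochondrial UMIs were kept, and the highest Scrublet scores (0.8% per 1000 cells) were removed. Joint clustering (scanpy 1.11.5, Leiden 0.10.2, 2000 variable genes, 30 components, 15 neighbours, resolution 1) left out the members, all listed and marker genes, and sex, mitochondrial, ribosomal and haemoglobin genes. A cluster took a class name with at least 3 of its markers at a log2 fold of at least 1, a lead of at least 2, and other classes' markers rarer than its own among the top 10 genes. This naming rule was set after the clusters were seen, and names may differ from the study's. Hashtag thresholds of 130 and 323 UMIs were set from the pooled counts.

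UMIs were summed over cells of a class and given as CPM; log2 ratios have 1 CPM added. Intervals are 95%, Poisson or Clopper-Pearson. A count of 0 is given a limit of 3 UMIs. With 1 library per group no test was made. The members, lists and alternatives were chosen with earlier results of these data known. Named genes are the members, listed genes with a log2 ratio of at least 1 in any library, genes within 500 kb, and the 10 genes most like the family; Ctsb, Cstb, Camp and Ltf and the closing genes were added after their values were seen. The ratio step was tested on simulated counts. A result that needs a withheld item is not reported here.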

Additional observations from a re-analysis of the deposited data

Results flagged for a closer look

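The family's level in granulocyte-like cells went in opposite directions from the same control library. The log2 ratio was -1.29 in Mll3SI and -2.57 in Mll4SI, but 5.31 in Mll3/4SI, and the signs were the same in the cells of either hashtag. The difference was not tested, with 1 library in each group.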

How the results depend on the processing

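No paired analysis was possible because each group has 1 library. Every alternative run kept the sign of the family's log2 ratio in each library. Values that moved beyond counting error were, for Mll3SI, -1.12 (mean over cells), -0.79 (10 CPM added), -1.43 (no doublets removed), -1.01 and -1.51 (Hashtag1 and Hashtag2 cells) and -1.10 (without the top 1% of cells). For Mll4SI they were -1.29 (10 CPM added), -2.95 (nothing added), -2.19 (all kept cells), -2.22 (marker gate without clustering), -2.27 and -2.88 (Hashtag1 and Hashtag2 cells). For Mll3/4SI they were 5.202 (mean over cells), 5.43 (median-of-ratios scaling), 4.84 (10 CPM added), 5.50 (Leiden resolution 2), 5.13 (all kept cells), 5.15 (marker gate), 5.49 and 5.22 (Hashtag1 and Hashtag2 cells) and 5.57 (without the top 1% of cells). Of alternatives chosen after seeing the data, leaving out cells with 10 or more family UMIs by construction shrank the ratios, to -0.32 in Mll3SI and -1.56 in Mll4SI, against 1.33 in Mll3/4SI. The mean over clusters shared with control gave -1.12, -1.96 and 1.38, in that order. Without clusters 13 and 23 Mll3/4SI gave 1.98. The share of cells with a family UMI (control, Mll3SI, Mll4SI, Mll3/4SI) was 6.71%, 3.98%, 1.27% and 23.6% without thinning, 3.50%, 2.29%, 0.692% and 14.3% at 5000 UMIs, and 0.773%, 0.249%, 0.103% and 6.04% for 3 or more UMIs. In Mll3/4SI it was 9.83% and 13.05% in Hashtag1 and Hashtag2 cells. Cells with 2 or more members came to 53.8% of positive Mll3/4SI cells at 3 UMIs of each without thinning, also chosen after seeing the data. The cause of each shift was not tested. The matched-stage ratios moved less than the spread over their ranges, and no ratio of a single member with a size of at least 1 changed sign. Levels under 0.0416 CPM lie below 3 UMIs in the control library.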

Other observations

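Beyond the stefin genes, few transcripts separated Mll3/4SI cells of clusters 13 and 23 with 10 or more family UMIs from those with none. Chil1, a chitinase-like gene, stood at 54.0 and 32.7 CPM, the ficolin gene Fcnb at 588 and 394 CPM, and Ltf at 2519 and 1876 CPM. Mpo, which encodes the granule enzyme myeloperoxidase, stood lower in the cells with the family, at 123 and 194 CPM, and so did Prg2, an eosinophil granule gene, at 0.399 and 6.24 CPM. Few cells carried Prg2, 2 of 256 and 18 of 834. The median depths of the 2 sets were 18289 and 17397 UMIs. These genes were picked after the values were seen, from those with the largest ratios but not by size alone. With 10 CPM added, Aff2, Tanc1 and Vhl had higher ratios than Ltf. Among the lower genes, Sugct, Mbtps2, Msantd3, Epsti1 and the interferon-induced Ifi27l2a came next after Prg2 and Mpo.

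Among barcodes removed as doublets, 47 of 411 in Mll3/4SI and 6 of 409 in control had 10 or more family UMIs. The unnamed clusters of Mll3/4SI stood at 8.30 CPM of the family, with 4 of 1977 cells at 10 or more UMIs.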
